A study of Mus musculus with 6 samples.

Results

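The kidney reclaims nearly all of the glucose that the glomerulus filters, and it also makes glucose of its own. Both tasks belong mainly to the proximal tubule. There, sodium-coupled cotransporters (SGLT proteins) take glucose up from the filtrate at the brush border, facilitative transporters (GLUT proteins) pass it to the blood across the basolateral membrane, and a set of cytosolic and endoplasmic reticulum enzymes turns lactate, glutamine and glycerol into new glucose. The genes followed here were 4 transporters (Slc5a2, Slc5a1, Slc2a2 and Slc2a1) and 3 gluconeogenic enzymes (Pck1, Fbp1 and G6pc). They were chosen by function, as the rows of the count table whose GENCODE symbol is one of these names, and made up 7 of the 55450 genes listed.

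Total kidney RNA from 6 male C57BL/6J wild-type mice was sequenced, 3 in a day-0 group and 3 in a day-21 group, from a design with 6 mice per group. The mice had been bought at 7 weeks of age and kept for 1 week before the study. Mice of the day-21 group were gavaged every day with adenine at 0.16 g/kg together with 2.4 g/kg of potassium oxonate, a model of hyperuricemia-related chronic kidney disease in which adenine load and oxonate, an inhibitor of urate breakdown, are given together and cannot be told apart. The day-0 mice served as the control and their treatment is labelled 20% PEG. By the paper's design each group was killed on its named day, so age and time in the study also separate the groups. Their part cannot be told apart from that of the compounds.

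Library totals ran from 10963849 to 14333311 counts, so that 3 counts, taken as the smallest visible level, were at most 0.309 CPM. CPM here means a normalised count, scaled by library total and by TMM, a factor that sets the bulk of genes level between libraries. The groups differed in makeup: mitochondrially encoded genes took 9.39% to 9.86% of counts on day 0 and 3.82% to 4.42% on day 21, and TMM factors ran from 0.852 to 0.886 on day 0 and from 1.12 to 1.17 on day 21. A gene was called when edgeR's quasi-likelihood test gave an adjusted p under 0.05 and the fold exceeded 1.5.

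Expression of the glucose genes was lower on day 21 for nearly the whole set. Of the 7 members, 5 were called lower (Pck1, G6pc, Fbp1, Slc5a2 and Slc2a2) and 1 was called higher (Slc2a1), against 15.5% of the 16592 tested genes called lower, 19.6% called higher and 35.1% called in all. The remaining member, Slc5a1, was lower by less than the required fold. The median log2 fold change of the 7 members was -1.71, and that of all tested genes was 0.03. In every member the 3 day-0 values and the 3 day-21 values did not overlap (6 lower and 1 higher on day 21), as was so for 57.1% of all tested genes (26.4% lower and 30.7% higher). An exact two-sided permutation test of 3 mice against 3 then gives p = 0.1 for each member, the smallest p this design allows. Together the 7 genes took 0.312%, 0.525% and 0.596% of all counts in the kidneys of day 0. On day 21 their share was 0.155%, 0.12% and 0.156%.

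**Figure D1:**
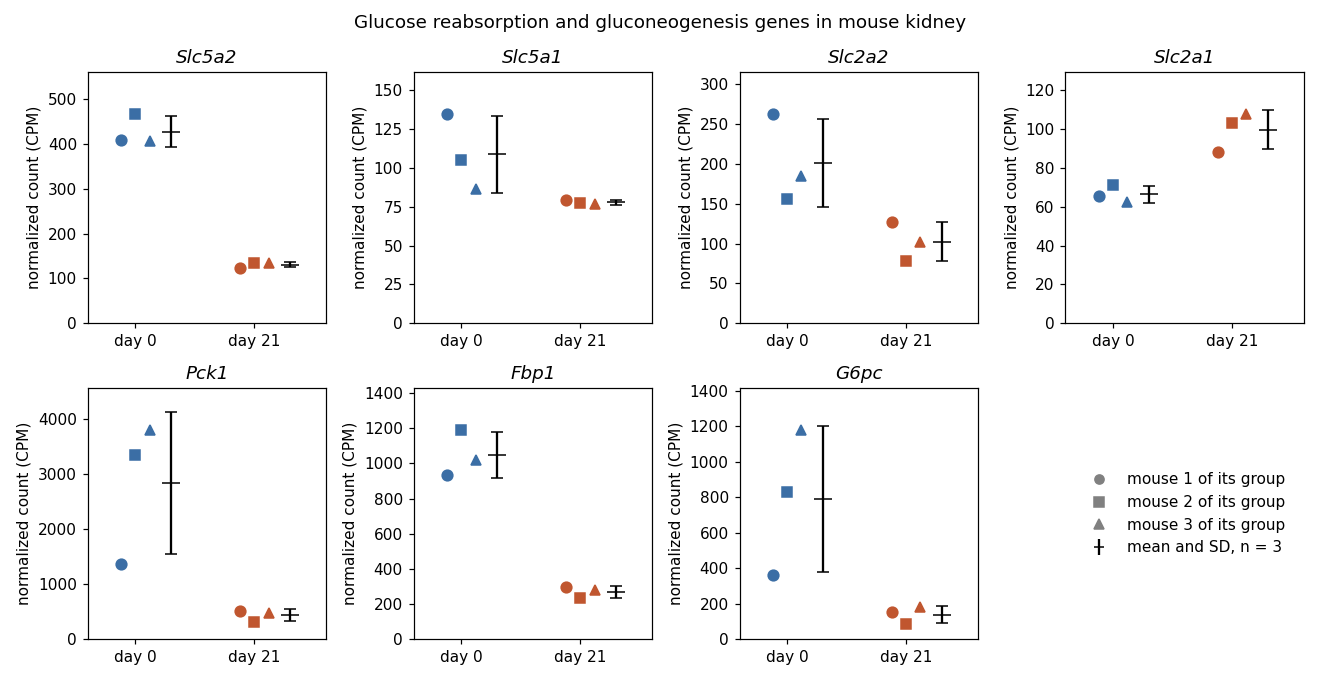
Normalized count (CPM, linear axis from 0) of each glucose gene in each of the 6 mice, with mouse 1, 2 and 3 of a group drawn as circle, square and triangle and the mean and SD (n = 3) drawn beside them. Only Slc2a1 sits higher on day 21 (88.5 to 108 CPM against 62.6 to 71.1), and mouse 1 of day 0 lies well below the other day-0 mice for Pck1 and G6pc.

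Whole kidney was sequenced, so fewer proximal tubule cells and less RNA per cell cannot be told apart in any of these values. All 10 proximal tubule markers tested were called lower (median log2 fold change -1.99), and their summed level was 21900 to 25100 CPM on day 0 and 5070 to 6540 CPM on day 21, 4.01-fold lower. The same held for 5 of 5 markers of the early proximal tubule (median -2.33), where SGLT2 is made, and for 6 of 6 markers of its late part (median -2.75), where SGLT1 is made. Injured-tubule markers moved the other way, with 6 of 6 called higher (median 4.57). The labelled tissue was borne out by its markers, which were high in every mouse. Hepatocytes, the other large source of Pck1, Fbp1 and G6pc transcripts in the body, were represented by 5 markers, with a summed level of 32.3 to 177 CPM on day 0 and 68.7 to 110 CPM on day 21. Serpina3k had no count in any mouse and Ahsg had 2 counts in 1 mouse and none in the others. Alb had 61 to 92 counts on day 0 and 10 to 19 on day 21, and Apoa2 had 20 to 57 counts in every mouse, and both were called lower. Ttr (transthyretin) made up most of the sum, at 22.1, 78.6 and 166 CPM on day 0 and 64.5, 108 and 103 CPM on day 21 (log2 fold change 0.05, SE 0.51, edgeR adjusted p = 0.95). Like Pck1 and G6pc it was lowest in mouse 1 and highest in mouse 3 of day 0, and its part in their values was not tested. Among markers of other cells, 6 of 7 for the distal nephron and collecting duct, 3 of 4 for podocytes and 2 of 5 for endothelium were called lower, and the thick ascending limb had 1 of 4 in each direction, beside 15.5% of all tested genes called lower and 19.6% higher. With libraries scaled by their total alone, 1 of 4 podocyte markers was called lower, beside 1338 of all 16592 tested genes.

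Slc5a2 encodes SGLT2, the high-capacity cotransporter of the early proximal tubule and the target of gliflozin drugs. The gene, ENSMUSG00000030781.13, lies at chr7:128265657-128272430 (GRCm38, plus strand) with 14 exons. Its level was 409, 468 and 407 CPM on day 0 and 124, 134 and 135 CPM on day 21. Both groups were tight, with an SD of 34.4 around a mean of 428 CPM on day 0 and of 5.75 around 131 CPM on day 21 (n = 3 each), and the gap between them was far larger than either spread. The log2 fold change was -1.71 (SE 0.11, 95% interval -1.95 to -1.46, edgeR adjusted p = 2.5e-06), which leaves 30.6% of the day-0 level (95% interval 25.8% to 36.3%). Of its 2897 exon bases, 597 (20.6%) also lie in exons of BC017158 on the opposite strand, which itself was lower (log2 fold change -1.19, SE 0.13, edgeR adjusted p = 5.1e-05). The strand setting of the counting is not given in the sources used here, so reads in the shared bases cannot be assigned with certainty.

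Slc5a1 encodes SGLT1, the high-affinity cotransporter that takes up the glucose left over in the late proximal tubule. It was the least changed of the 7 (ENSMUSG00000011034.6, chr5:33104219-33162870, plus strand, 15 exons). Day-0 mice had 135, 105 and 86.3 CPM and day-21 mice 79.5, 77.3 and 76.6 CPM. The day-0 values were scattered (109 ± 24.8, SD, n = 3) and the lowest of them lay close above the day-21 values, which were nearly equal (77.8 ± 1.5, SD, n = 3). The log2 fold change was -0.49 (SE 0.15, edgeR adjusted p = 0.025), a level at 71.4% of day 0 (95% interval 56.5% to 90.3%), and the fold stayed under 1.5. Individual mice and the scaling decided this value. Without mouse 3 of day 0 it was -0.64 and called lower (edgeR adjusted p = 0.0023), without mouse 1 of day 0 it was -0.32 (edgeR adjusted p = 0.059), and without any single day-21 mouse the adjusted p rose to between 0.06 and 0.081. When libraries were scaled by their total alone, the log2 fold change was -0.10 (edgeR adjusted p = 0.6) while the median of all genes moved to 0.42.

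On day 0 the cotransporter pair differed severalfold in abundance, and this distance shrank. Per kilobase of exon, the level of Slc5a2 on day 0 averaged 148 CPM and that of Slc5a1 26.5 CPM. On day 21 the levels per kilobase were 45.2 and 19.0 CPM. Within each mouse the ratio of Slc5a2 to Slc5a1 was 4.28, 6.3 and 6.69 on day 0 and 2.22, 2.46 and 2.49 on day 21. Every day-21 ratio was below every day-0 ratio, and this measure does not depend on how the libraries are scaled. The geometric mean went from 5.65 to 2.39, a log2 difference of -1.24 (SE 0.21). The exact two-sided permutation p was 0.1, the smallest possible, and 0.3 after Benjamini-Hochberg adjustment over the 6 ratios of members that were compared.

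Slc2a2 encodes GLUT2, the basolateral low-affinity transporter that carries glucose out of the early proximal tubule cell (ENSMUSG00000027690.13, chr3:28697903-28731359, plus strand, 11 exons). Its level was 263, 156 and 185 CPM on day 0 and 127, 78.4 and 102 CPM on day 21. The groups lay apart, although the distance between the lowest day-0 mouse and the highest day-21 mouse was smaller than the SD of the day-0 group (201 ± 55.1 against 102 ± 24.1, n = 3 each). Slc2a2 fell by 0.98 on the log2 scale (SE 0.21, edgeR adjusted p = 0.0039), to 50.8% of its day-0 level (95% interval 36.6% to 70.5%).

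Slc2a1 encodes GLUT1, a transporter of high affinity that many cell types use for basal glucose uptake and that the late proximal tubule uses on its basolateral side. It was the member that rose (ENSMUSG00000028645.11, chr4:119108711-119137983, plus strand, 10 exons). Values were 65.6, 71.1 and 62.6 CPM on day 0 and 88.5, 103 and 108 CPM on day 21. No day-21 mouse came near the day-0 range (66.4 ± 4.35 against 99.8 ± 10.1, SD, n = 3 each). The log2 fold change of 0.59 (SE 0.11, 95% interval 0.33 to 0.84, edgeR adjusted p = 0.002) sits on the fold threshold, whose log2 is 0.585. Its adjusted p stayed between 8.4e-05 and 0.015 under all alternatives run, but the fold passed 1.5 in only 8 of 16 of them. It fell short, for instance, with DESeq2 (0.55), and without mouse 1 (0.56) or mouse 3 (0.53) of day 0, or mouse 2 (0.56) or mouse 3 (0.53) of day 21. Leukocyte and fibroblast markers moved in the same direction, with 5 of 5 and 5 of 5 tested genes called higher (medians 2.52 and 1.24), and erythroid markers in the other (5 of 5 lower, median -2.41). Of all tested genes, 19.6% were called higher and 15.5% lower. The fibroblast count was 3 without mouse 2 of day 0, mouse 1 of day 21 or mouse 3 of day 21. The part of these cells in the level of Slc2a1 was not tested. A further 2.99% of its exon bases are shared with the antisense gene Gm12868, which was higher by 0.51 on the log2 scale (SE 0.15, edgeR adjusted p = 0.021).

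The ratio within the GLUT pair fell. Per kilobase of exon, the Slc2a2 to Slc2a1 ratio was 2.44, 1.34 and 1.8 on day 0 and 0.872, 0.463 and 0.575 on day 21. These ratios lay above 1 in every day-0 kidney and below 1 in every day-21 kidney. Their place about 1 depends on the length used, all annotated exon bases of each gene (5755 for Slc2a2, 3506 for Slc2a1). Before division by length, day-21 levels were 127, 78.4 and 102 CPM for Slc2a2 and 88.5, 103 and 108 CPM for Slc2a1. On that measure Slc2a2 was still the higher of the pair in mouse 1 of day 21. The fall of the ratio does not depend on length. The geometric mean fell from 1.8 to 0.614, a log2 difference of -1.55 (SE 0.37, exact permutation p = 0.1, 0.3 after Benjamini-Hochberg adjustment over 6 ratios). Slc5a2 relative to Slc2a2, the entry and exit steps of the early tubule, had overlapping ratios (geometric mean 4.32 on day 0 and 2.59 on day 21, log2 difference -0.74, SE 0.36, exact permutation p = 0.2).

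**Figure D2:**
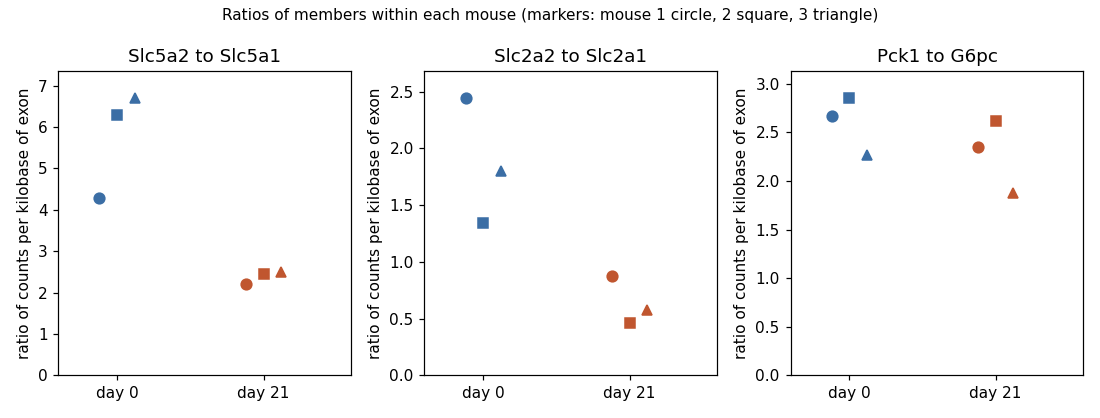
Ratio of counts per kilobase of exon between pairs of glucose genes within each mouse (linear axes from 0). Circle, square and triangle are mouse 1, 2 and 3 of each group and are not pairs across groups. Slc5a2 to Slc5a1 and Slc2a2 to Slc2a1 are lower in every day-21 mouse than in any day-0 mouse, and Pck1 to G6pc overlaps between the groups (2.27 to 2.85 against 1.88 to 2.62).

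Among 16 relatives of these transporters and a partner of SGLT2, 14 passed the low-count filter, of which 7 were called lower and 2 higher (median log2 fold change -0.74). Over all tested genes, 15.5% were called lower and 19.6% higher. The largest falls were in Slc2a5, the fructose transporter GLUT5 (-1.76, SE 0.14, edgeR adjusted p = 8.1e-06), and Slc5a3, a sodium-coupled myo-inositol transporter that guards medullary cells against osmotic stress (-1.66, SE 0.17, edgeR adjusted p = 3.4e-05). Next came Slc2a4, the insulin-responsive GLUT4 (-1.33), and Slc5a11, another inositol cotransporter (-1.22). Slc5a10, Slc2a12 and Slc5a9 were also called lower. The rises were in genes of low level: Slc2a6, which encodes GLUT6, went from 7, 8 and 4 counts on day 0 to 63, 127 and 73 counts on day 21 (log2 fold change 3.19, SE 0.39, edgeR adjusted p = 1e-04), and Slc2a10 from 0.932 to 2.32 CPM (log2 fold change 1.29, edgeR adjusted p = 0.017). The call on Slc2a10 was lost without mouse 3 of day 0 (edgeR adjusted p = 0.058) or mouse 1 of day 21 (0.078). Pdzk1ip1, which encodes the small membrane partner MAP17 that SGLT2 needs for activity, was not called: it averaged 520 CPM on day 0 and 428 CPM on day 21 (log2 fold change -0.28, SE 0.13, edgeR adjusted p = 0.1).

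Gluconeogenesis runs glycolysis backwards except at the irreversible steps, where it has enzymes of its own. Phosphoenolpyruvate carboxykinase (Pck1) makes phosphoenolpyruvate from oxaloacetate, fructose-1,6-bisphosphatase (Fbp1) removes a phosphate from fructose bisphosphate, and glucose-6-phosphatase (G6pc) releases free glucose in the endoplasmic reticulum. In the kidney, Pck1 is known to respond to acidosis, fasting and glucocorticoids.

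Pck1 was the most abundant member on day 0 and had the largest fall (ENSMUSG00000027513.11, chr2:173153048-173159273, plus strand, 9 exons). The day-0 mice had 1370, 3350 and 3800 CPM and the day-21 mice 520, 315 and 482 CPM. Mouse 1 of day 0 had well under the level of the other day-0 mice, yet more than any day-21 mouse. Means were 2841 ± 1290 and 439 ± 109 CPM (SD, n = 3 each). The log2 fold change was -2.69 (SE 0.34, edgeR adjusted p = 0.00014), leaving 15.5% of the day-0 level (95% interval 9.09% to 26.3%). On the scale of CPM per kilobase, Pck1 ranked 45 among the 16592 tested genes on day 0 and 292 on day 21.

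G6pc showed the same picture at a lower level (ENSMUSG00000078650.2, chr11:101367561-101377903, plus strand, 5 exons). It had 362, 829 and 1180 CPM on day 0 and 156, 84.8 and 180 CPM on day 21. Again mouse 1 of day 0 was the low value of its group, and the groups did not overlap. The mean went from 790 ± 410 to 140 ± 49.7 CPM (SD, n = 3 each), a log2 fold change of -2.49 (SE 0.40, edgeR adjusted p = 0.00058) that left 17.8% of the day-0 level (95% interval 9.64% to 32.8%). The ratio of Pck1 to G6pc per kilobase of exon was 2.67, 2.85 and 2.27 on day 0 and 2.35, 2.62 and 1.88 on day 21. These overlapped (log2 difference -0.19, SE 0.17, exact permutation p = 0.4). The ratio thus ran from 1.88 to 2.85 over the 6 mice, while each of the genes varied severalfold.

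Fbp1 fell with a much smaller spread (ENSMUSG00000069805.10, chr13:62864753-62888282, minus strand, 7 exons). Its level was 932, 1190 and 1020 CPM on day 0 and 295, 233 and 282 CPM on day 21. The day-0 values lay close together and well above the day-21 values (1046 ± 130 against 270 ± 32.4, SD, n = 3 each). The log2 fold change was -1.95 (SE 0.14, edgeR adjusted p = 4.3e-06), leaving 25.8% of the day-0 level (95% interval 20.8% to 32.1%). Per kilobase of exon, Fbp1 was second to Pck1 on day 0 (614 against 828 CPM) and above it on day 21 (159 against 128 CPM), although the ratio of Pck1 to Fbp1 in single mice overlapped between the groups (log2 difference -0.64, SE 0.42, exact permutation p = 0.3). The levels per kilobase on day 0 were, from highest to lowest, those of Pck1, Fbp1, G6pc (327 CPM), Slc5a2, Slc2a2, Slc5a1 and Slc2a1 (18.9 CPM). Neighbours in that order whose day-0 values overlapped between mice were Pck1 and Fbp1, G6pc and Slc5a2, and Slc2a2 and Slc5a1.

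The day-0 group was uneven for Pck1 and G6pc. Their coefficients of variation there were 45.4% and 51.9%, against a median of 14.0% over the 13142 genes with a mean of at least 50 counts, of which 4.05% varied more than Pck1 and 2.78% more than G6pc. Those of Fbp1 and Slc5a2 were 12.4% and 8.03%. In mouse 1 of day 0, Pck1 was 1.38 and G6pc 1.45 log2 units below the mean of the other day-0 mice, and Slc2a2 and Slc5a1 were 0.63 and 0.51 above it. The summed level of the 6 injured-tubule markers ran from 538 to 1680 CPM on day 0, and 5 of them were highest in that mouse. It had 16.0 CPM of Krt20 against 0.247 and 0.515, 8.12 of Havcr1 (kidney injury molecule-1) against 2.23 and 1.55, and 1610 of Spp1 (osteopontin) against 752 and 513. The distance was smaller for Vcam1 (29.2 against 18.6 and 16.0 CPM) and Lcn2 (7.52 against 6.76 and 5.46 CPM), and Sox9 was not highest there (1.1 against 0.577 and 1.34 CPM). Late proximal tubule markers were all below the mean of the other day-0 mice there, from -0.07 (Slc6a18) to -1.30 (Acsm3) log2 units. Early proximal tubule markers were all above it, from 0.12 (Slc7a8) to 0.75 (Slc6a19). The general proximal tubule markers went both ways, from -0.71 (Slc22a6) to 0.24 (Lrp2). The listed regulators also went both ways in that mouse. Ppargc1a, a coactivator of gluconeogenic genes, was at 58.7 CPM there against 79.5 and 100. Foxo1 was at 73.6 CPM against 57.2 and 56.6, and Foxo3 at 270 CPM against 215 and 176. The part of these differences in the values of Pck1 and G6pc was not tested. Without this mouse the falls were larger (log2 fold change -3.05 for Pck1 and -2.86 for G6pc), and 5 members were called, all lower.

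Promoter sequence is shown for Pck1 and G6pc because they varied together, and in short windows for Slc2a1, the member that rose, and Slc5a1, the least changed. Sequences are from RefSeq (GRCm38.p6), which matched 6 of the 7 members and not Slc5a2, and are written on the gene's strand. Motifs were searched on both strands of 300-base windows from 250 bases before to 50 after each of 32851 starts, and were chosen after the sequences were seen. Capitals mark, in Pck1, ATTAAC, the reverse complement of a run of letters (GTTAAT) that the G6pc window also holds, and then ACGTCA, part of the cAMP response element. They mark GTTAAT in G6pc and ACGTG, the core of the hypoxia response element, in Slc2a1 and Slc5a1, where it is found on both strands with overlap as CACGTG. The Pck1 stretch is chr2:173152823-173153047, that of G6pc is chr11:101367466-101367560, that of Slc2a1 is chr4:119108697-119108726 and that of Slc5a1 is chr5:33104064-33104093, all on the plus strand. They end 26 (Pck1), 156 (G6pc), 19 (Slc2a1) and 126 (Slc5a1) bases before the RefSeq start, so they do not show the same part of each promoter. In Slc2a1 the stretch and its marked letters cross the GENCODE gene start given above.
Pck1: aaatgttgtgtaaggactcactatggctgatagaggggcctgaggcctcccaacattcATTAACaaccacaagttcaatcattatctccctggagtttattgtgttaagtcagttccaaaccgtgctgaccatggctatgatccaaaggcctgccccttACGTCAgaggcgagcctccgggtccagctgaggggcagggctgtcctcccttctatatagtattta
G6pc: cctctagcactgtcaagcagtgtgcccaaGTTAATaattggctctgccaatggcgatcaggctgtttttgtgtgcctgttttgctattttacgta
Slc2a1: gtcccgccccggACGTGctccccaggcccc
Slc5a1: ccttttctgcctCACGTGggactccgtggc

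GTTAAT was found in Pck1 and G6pc among the 6 matched members and in 7.1% of all promoters. ACGTCA was found in Pck1 and in 7.51% of all promoters, and ACGTG in Slc2a1 and Slc5a1 and in 19.6%. The longer forms TGACGTCA (1.79% of promoters) and CAAAGTCCA, a site for HNF4 factors (0.475%), and the forkhead motif GTAAACA (3.65%) were in none of the 6 windows. These matches are descriptions of sequence and no binding was measured.

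The wider pathway fell along with its defining enzymes. Of 22 other genes of gluconeogenesis and its precursors, 21 were tested, of which 14 were called lower and 1 higher (median log2 fold change -0.88). The shares over all tested genes were 15.5% lower and 19.6% higher. Pcx, pyruvate carboxylase, which makes the oxaloacetate that Pck1 uses, went from 701, 701 and 795 CPM to 164, 109 and 134 CPM (log2 fold change -2.43, SE 0.16, edgeR adjusted p = 2.5e-06). Slc37a4, which brings glucose-6-phosphate into the endoplasmic reticulum for G6pc, went from 279 ± 68.4 to 71.9 ± 6.14 CPM (SD, n = 3 each, log2 fold change -1.96). Suppliers of carbon fell too: Slc5a8, a sodium-coupled lactate transporter, by 2.27 and Gk, glycerol kinase, by 2.11 on the log2 scale. Further called falls, from 1.85 to 0.61, included those of Khk, Gpd1, Gpt, Slc5a12, Mdh1, Got1, Mdh2, Glud1 and Got2. Of these, Got1, Mdh2, Glud1 and Got2 were not called with libraries scaled by their total alone. There 10 of the 21 were called lower, beside 1338 of all 16592 tested genes. The call on Got2 was also lost without mouse 1 or mouse 2 of day 0 (log2 fold change -0.58 and -0.55).

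Pck2, the mitochondrial form of phosphoenolpyruvate carboxykinase and a known target of the amino acid stress response, was the gene of this list that rose. It had 138, 223 and 151 counts on day 0 and 574, 661 and 654 counts on day 21 (15.9 ± 2.29 against 40.0 ± 0.573 CPM, log2 fold change 1.33, SE 0.14, edgeR adjusted p = 3.3e-05). It remained the rarer form, at 5.13 CPM per kilobase on day 21 against 128 for Pck1. Genes without a call included G6pc3, the widely expressed glucose-6-phosphatase (log2 fold change -0.12), the lactate dehydrogenase subunit Ldhb (0.18) and the monocarboxylate transporter Slc16a1 (-0.08).

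Genes listed for the irreversible glycolytic steps, which oppose these enzymes, were called about as often as genes at large. The list also took in Ldha and the Pfkfb genes, which do not encode enzymes of those steps. Of 14 tested, 3 were called higher and 2 lower (median log2 fold change 0.22), beside 19.6% and 15.5% of all tested genes. With libraries scaled by their total alone, 6 were called higher and 0 lower. Under that scaling 5985 of all 16592 tested genes were called higher and 1338 lower. Hk2, the inducible hexokinase that phosphorylates glucose, went from 16, 15 and 7 counts to 163, 324 and 267 counts (log2 fold change 3.71, SE 0.31, edgeR adjusted p = 1.1e-05). It started near the limit of what these libraries show, at 1.19 CPM, and reached 15.7 CPM. Hk3, the hexokinase of myeloid cells, rose by 2.62 and Hkdc1 by 1.42 on the log2 scale. The called falls were small, in Pfkfb2 (-0.71) and Pfkm (-0.69), and neither was called under that scaling.

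**Figure D3:**
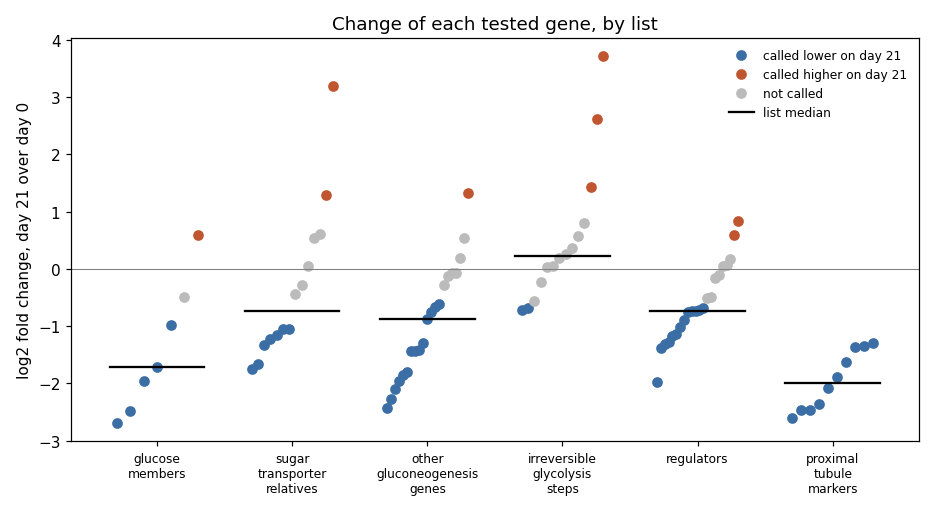
Log2 fold change (day 21 over day 0, edgeR, n = 3 mice per group) of each tested gene, grouped by list, with list medians as black bars. Blue and orange points were called lower and higher and grey points were not called. The medians are -1.71 for the glucose genes, -0.74 for transporter relatives, -0.88 for other gluconeogenesis genes, 0.22 for irreversible glycolysis steps, -0.73 for regulators and -1.99 for proximal tubule markers.

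Regulators of these genes were also measured, and 13 of 22 were called lower and 2 higher (median log2 fold change -0.73), beside 15.5% and 19.6% of all tested genes. When libraries were scaled by their total alone, 7 were called lower, beside 1338 of all 16592 tested genes. Hnf4a, a nuclear factor that maintains proximal tubule genes, fell by 1.28 (SE 0.14, edgeR adjusted p = 5.3e-05). Ppara, a fatty acid sensor, fell by 1.97, the glucagon receptor Gcgr by 1.39, and Foxo3 by 1.31. Foxo1, the insulin-restrained activator of Pck1 and G6pc, fell by 0.76 (SE 0.13, edgeR adjusted p = 0.00081). Foxo1 was not called under scaling by library total. Its coactivator Ppargc1a had a log2 fold change of -0.50 (SE 0.17, edgeR adjusted p = 0.034), under the required fold, and -0.70 with a call when mouse 1 of day 0 was left out.

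Cebpb, a leucine zipper factor, was among the regulators called higher (0.83, SE 0.25, edgeR adjusted p = 0.019). Its call was lost without mouse 2 of day 0 (edgeR adjusted p = 0.054) or mouse 2 of day 21 (0.081). Hif1a, the oxygen-regulated factor that acts on Slc2a1 and Hk2, had a log2 fold change of 0.17 (SE 0.11, edgeR adjusted p = 0.24).

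Set against the summed count of the 10 proximal tubule markers in the same mouse, a measure free of library scaling, the enzymes overlapped between the groups and the transporters did not. Fbp1 was 4.26%, 4.73% and 4.3% of that sum on day 0 and 4.51%, 4.6% and 4.68% on day 21, which overlap (log2 difference 0.05, SE 0.051, exact permutation p = 0.4). Pck1 and G6pc also overlapped (log2 differences -0.59 and -0.40, SE 0.43 and 0.52, exact permutation p = 0.3 and 0.5). Their overlap came from mouse 1 of day 0, at 6.28% against 13.3% and 16.0% for Pck1 and 1.65% against 3.3% and 4.98% for G6pc. The day-21 values were 6.22% to 8.0% for Pck1 and 1.67% to 2.99% for G6pc. Without that mouse neither gene overlapped, and the log2 differences were -0.99 for Pck1 and -0.83 for G6pc. The 4 transporters were higher relative to the markers in every day-21 mouse than in any day-0 mouse. The summed markers were 4.01-fold lower on day 21, so a gene that fell by less rises on this measure. The median log2 fold change of all tested genes was 0.03, so a rise here is not particular to these transporters. The share of all genes without overlap on this measure was not computed. For Slc5a1 the percentages were 0.619, 0.419 and 0.364 on day 0 and 1.21, 1.53 and 1.27 on day 21, a rise of 1.55 on the log2 scale (SE 0.25). Differences were 0.30 for Slc5a2 (SE 0.14), 1.04 for Slc2a2 (SE 0.29) and 2.59 for Slc2a1 (SE 0.18). Each of these 4 had no overlap between groups and an exact permutation p of 0.1, the smallest possible, and 0.175 after Benjamini-Hochberg adjustment over the 7 members. For Slc5a2 the distance was narrow, with 1.87% as the highest day-0 value and 1.9% as the lowest on day 21.

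**Figure D4:**
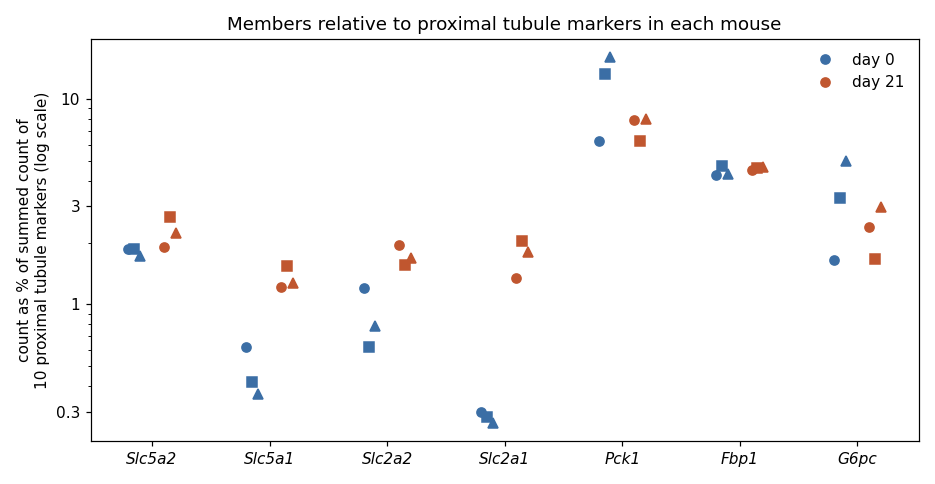
Count of each glucose gene as a percentage of the summed count of 10 proximal tubule markers in the same mouse (log axis), day 0 in blue and day 21 in orange, with mouse 1, 2 and 3 of a group as circle, square and triangle. The 4 transporters on the left are higher on day 21 in every mouse, and Pck1, Fbp1 and G6pc on the right overlap between groups. For Pck1 and G6pc the overlap comes from mouse 1 of day 0.

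The genes whose profiles over the 6 mice were nearest to each member were found by the distance between centred log2 CPM values among 13135 genes. For Fbp1 these were Sord (distance 0.085), sorbitol dehydrogenase, and Gcdh (0.148), glutaryl-CoA dehydrogenase. Pck1 and G6pc had Slc16a14, a monocarboxylate transporter family member, in common among their nearest pairs (0.327 and 0.56), with B230322F03Rik (0.402) for Pck1 and the carboxylesterase Ces2c (0.502) for G6pc. For Slc5a2 they were the antisense gene Gm15788 (0.168) and Hibadh (0.181), an enzyme of valine breakdown, and for Slc5a1 they were Lss (0.0881), lanosterol synthase, and Renbp (0.0885), renin binding protein. Slc2a2 was nearest to Rad54l2 (0.0893) and Shank3 (0.209), and Slc2a1 to Dhrs13os (0.0683) and the integrin subunit gene Itgb5 (0.101).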

How the data were processed

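Total kidney RNA was made into libraries and sequenced as paired-end reads, and the authors deposited raw counts per gene with each mouse kept separate. The submitters' processing notes name TopHat and mm10, and the counting program and its strand setting are not given in the sources used here. Identifiers are those of GENCODE mouse release 21 on GRCm38. Each column was mapped to a mouse by its label, and the control label was taken as day 0 because the design text equates them. No mouse duplicated another of its group (lowest chi-square per gene 6.78).

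Counts were filtered with filterByExpr (minimum count 10, minimum total 15), scaled by TMM and compared with edgeR 4.0.16 (R 4.3.3) (quasi-likelihood test, no block for replicate number). P-values were adjusted by the Benjamini-Hochberg method across 16592 genes. Ratios within a mouse used counts alone, with two-sided exact permutation tests. Sequence searches and figures used Python 3.11.15. The fits were tested on simulated data. Floors of 3 counts cover counting error only.

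Alternatives were RLE, upper quartile or library-total scaling, no filter or a mean of at least 50 counts, DESeq2 1.42.0, voom in limma 3.58.1, other thresholds, omission of single mice, a replicate block, and libraries without mitochondrially encoded genes or the 20 highest genes. Named are all members, up to 4 called genes with the largest change per direction in each list, the regulators Hnf4a, Ppargc1a, Foxo1, Cebpb and Hif1a and the 2 nearest profiles per member. Some genes that this rule or a list takes in are not reported here. Other genes were named after their values were seen. Members and lists were chosen with earlier results of these data known.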

Additional observations from a re-analysis of the deposited data

How the results depend on the processing

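Of 112 recomputed log2 fold changes of members, 103 kept their direction and their side of the threshold and 0 reversed, and the number of members called ranged from 4 to 7. The log2 fold change of Slc2a1 was 0.55 with RLE scaling, 0.55 with DESeq2 and 0.58 with limma-voom, each under the required fold, and between 0.53 and 0.67 with single mice left out. That of Slc5a1 ran from -0.64 to -0.32 with single mice left out. Deviations of same-numbered mice were weakly correlated (-0.019, 0.165 and 0.0896), and those of differently numbered mice ran from -0.181 to 0.116. The numbers were taken as names. With the replicate block 5758 genes were called (3235 higher, 2523 lower), 5 members were called and Slc2a1 was at 0.58. Over all genes, 5821 were called, of which 3249 were higher and 2572 lower (55.8% higher). Scaling by library total gave 5985 higher and 1338 lower (81.7% higher), with the median of all genes at 0.42 in place of 0.03, and thresholds of 0.01 for the adjusted p and 2 for the fold gave 3172 (1918 higher, 1254 lower). With single mice left out the calls ran from 5128 to 5920, with 2844 to 3242 higher and 2283 to 2708 lower. Of 576 recomputed counts over lists, 541 stayed within 1.5 times, which takes in counts that were 0 and stayed 0. The counts of regulators called higher and of hepatocyte markers called lower each moved in 7 of 18 alternatives. The 36 recomputed ratios between members kept their direction. Of 56 ratios to proximal tubule markers, 51 moved by less than the spread between mice. The other 5 were set against Lrp2 alone, where the log2 difference was 0.67 for Slc5a2, 1.92 for Slc5a1, 1.41 for Slc2a2, 2.96 for Slc2a1 and 0.43 for Fbp1. The causes of these changes were not tested. With 3 mice per group no exact permutation test can go below 0.1, and bulk tissue does not say which cells hold a transcript. Nothing states that the mice come from separate cages or litters, so p-values measure the spread between these animals only.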

Other observations

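G6pc2, the glucose-6-phosphatase form of pancreatic islets, had no counts on day 0 and 2, 4 and 1 counts on day 21. It did not pass the low-count filter and no fold is given.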
